A study of Mus musculus with 4 samples.

Results

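The tumour suppressor p53 (gene symbol Trp53) and 9 of its established target genes were followed through 4 RNA-seq libraries of mouse pre-B cells. They are 10 genes of the 23284 gene symbols that each library reports. They were chosen by symbol, to ask whether a p53 response persisted in marrow 1 month after transplantation. The libraries come from C57BL/6J mice, 1 library in each of 4 groups. These are cells labelled STAP-2 knockout and wild-type cells, both from marrow 1 month after transplantation, and cells transgenic for the adaptor protein STAP-2 and wild-type cells, both from marrow at steady state. The titles of the transplanted pair carry another number code than those of the steady-state pair, so transplantation and what the codes stand for cannot be told apart. The sources used here do not give the promoter that drives the transgene, the number of mice behind a library, the conditioning of recipients or their share of the cells.

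p53 is a transcription factor that is kept scarce by its own target Mdm2 and is stabilised by DNA damage, oncogene activity and other stress. It then raises genes that halt the cell cycle, repair DNA or start cell death. Its activity is commonly read from target transcripts, because p53 itself is controlled mainly at the level of the protein. Pre-B cells cut their own DNA to rearrange immunoglobulin genes and alternate this with rapid division, and radiation, often used to prepare transplant recipients, is a textbook inducer of p53.

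All 4 libraries held the 12 pre-B markers set for the check of the cell type, at a summed 6531 FPKM in the library labelled knockout, 7142 in transplanted wild type, 6809 in the transgenic library and 7263 in steady-state wild type. FPKM is a level normalised to transcript length and library size. Cd79a, Cd79b and Vpreb3 carry most of that sum, and markers of early stages differed more. Vpreb1, a surrogate light chain gene, stood at 38.6, 30.2, 34.4 and 7.31 FPKM in that order of libraries, and Dntt, the terminal transferase gene, at 15.1, 12.1, 7.53 and 2.12. The recombinase gene Rag1 was highest in steady-state wild type, at 286, 453, 429 and 638 FPKM in that order. The part of these stage differences in the p53 genes was not tested. Markers of other cells were present too: 17 neutrophil and monocyte genes, S100a8 the highest, summed to 689, 1792, 1911 and 805 FPKM in the same order of libraries, none of them at 0. The 9 plasma cell and megakaryocyte markers, Igj the highest, summed to 91.3, 98.1, 304 and 425 FPKM, lower in both transplanted libraries. Most of that gap was Igj, at 7.23, 16.6, 204 and 306 FPKM in that order. The 10 erythroid markers summed to 15.3, 11.1, 7.70 and 55.6 FPKM, highest in steady-state wild type, and the 13 T and NK cell markers to 21.4, 28.3, 19.1 and 21.2. Depth, estimated from the 1-read steps of low values, was about 8610000, 7740000, 7230000 and 7320000 reads in that order. Stap2 was listed at 0.179 FPKM, or about 2 reads, in the library labelled knockout and at 0 in transplanted wild type, and it was at 0.536 in the transgenic library and 0.212 in steady-state wild type. Its level therefore checks neither label. No difference has a replicate check, no p-value is given, and the 95% intervals beside ratios cover counting error only. In bulk samples, fewer cells of a type and less RNA per cell cannot be told apart.

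p53 binds a tandem of 10-base motifs, the p53 response element. The 20-base consensus, with no spacer, reads the same on both strands, and its best match was sought in RefSeq promoter windows (GRCm38.p6, from 250 bases before to 50 bases after a start), which were at hand for 8 of the 10 genes (none for Trp53inp1 and Zmat3). The upstream parts of the windows with the closest matches are shown because they hold near-complete matches and their genes had different patterns of level, given below. Cdkn1a is shown at the more upstream of its annotated starts (chr17:29090729-29090978, plus strand) and Ccng1 at its single start (chr11:40755287-40755536, minus strand). Capitals mark the bases that fit the consensus in the best 20-base match.
Cdkn1a: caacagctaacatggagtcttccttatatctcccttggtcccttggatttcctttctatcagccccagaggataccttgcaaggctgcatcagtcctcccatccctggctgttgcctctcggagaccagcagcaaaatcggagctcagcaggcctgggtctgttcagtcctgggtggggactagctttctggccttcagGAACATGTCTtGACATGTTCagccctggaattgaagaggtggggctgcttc
Ccng1: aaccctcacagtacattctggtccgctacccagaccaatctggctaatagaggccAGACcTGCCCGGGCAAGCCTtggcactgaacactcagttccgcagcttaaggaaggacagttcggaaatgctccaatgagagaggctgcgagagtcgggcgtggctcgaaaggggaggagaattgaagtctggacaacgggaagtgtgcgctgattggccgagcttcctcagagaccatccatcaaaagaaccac

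Each of these matches fits 19 of 20 positions, which 29 of 32851 promoter windows, or 0.0883%, reached. The Cdkn1a match lies at chr17:29090928-29090947 and the Ccng1 match at chr11:40755462-40755481. The other windows held weaker matches, from 14 to 17 of 20 positions, and 3 of them are shown for contrast.
Trp53: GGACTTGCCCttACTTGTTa
Aen: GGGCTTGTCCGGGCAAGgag
Mdm2: GAACTTGCCTAGcgAccaTT
The Trp53 match (chr11:69580284-69580303, plus strand) and the Aen match (chr7:78895937-78895956, plus strand) fit 17 of 20 positions, and 6.29% of all windows hold a match at least as close. The Mdm2 match (chr10:117710925-117710944, minus strand) fits 15, and 76.6% of windows hold a match at least as close. Mdm2 is known to be driven by p53 from a promoter inside the gene, which this window does not cover. A match describes letters in a window and says nothing of binding in these cells.

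Trp53 itself (chromosome 11, 69580359 to 69591873, plus strand, GRCm38) was at 102 FPKM in the library labelled knockout, 101 in transplanted wild type, 103 in the transgenic library and 104 in steady-state wild type. The highest library exceeded the lowest 1.03-fold, on 1201 to 1416 estimated reads each. Among 10164 genes at 1 FPKM or more in all 4 libraries the median gene spanned 1.25-fold. At 1 FPKM a transcript of 1500 nt has about 9 to 11 reads, where counting error alone widens the span. Without matching for level, 0.335% of these genes spanned as little as Trp53. The ratio was 0.993 (0.916 to 1.08) for transgenic over wild type and 1.01 (0.936 to 1.09) for the library labelled knockout over wild type. It was 0.972 (0.898 to 1.05) for transplanted over steady-state wild type. Trp53 ranked between the 770th and the 801st highest of all symbols in every library.

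Mdm2 (chromosome 10, 117688875 to 117710758, minus strand) encodes the ubiquitin ligase that sends p53 to destruction and is itself one of the most direct readouts of p53. It was at 51.8 FPKM in the library labelled knockout and 55.2 in transplanted wild type, and at 55.9 in the transgenic library and 60.8 in steady-state wild type. Steady-state wild type was the highest of the libraries and the library labelled knockout the lowest. Transplanted over steady-state wild type the ratio was 0.907 (0.839 to 0.982) for these 2 libraries. Its partner Mdm4, which masks the activation domain of p53, was at 83.7, 94.5, 97.0 and 93.5 FPKM in the same order of libraries.

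**Figure D1:**
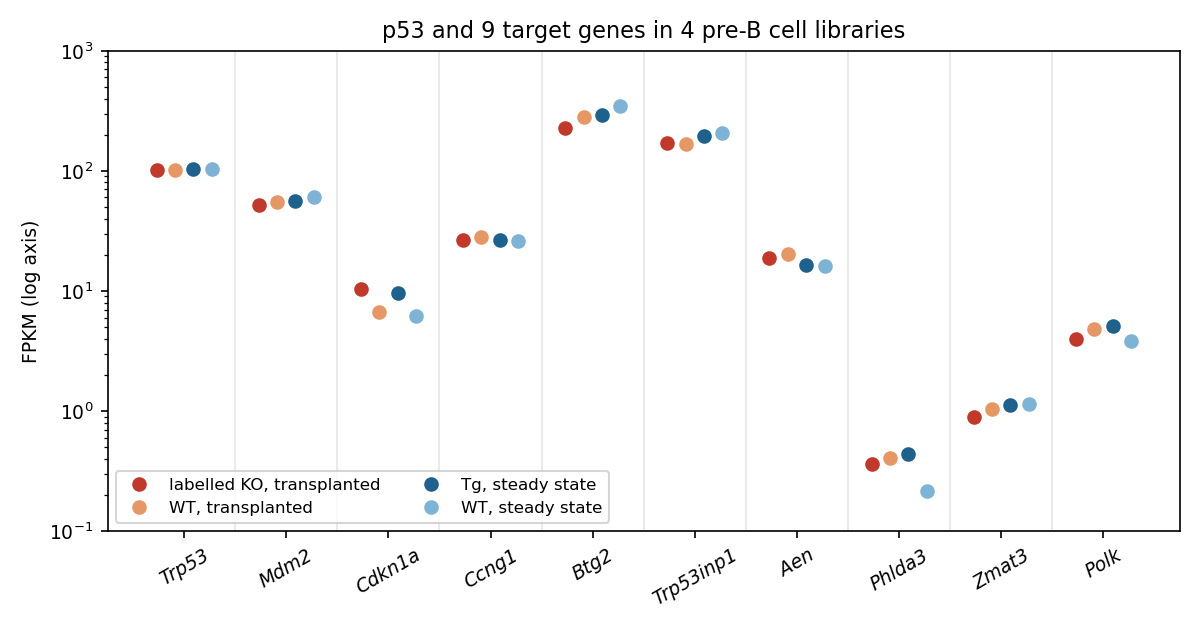
FPKM (log axis) of p53 and 9 target genes, 1 point per library, with transplanted libraries left of steady-state ones and the knockout-labelled and transgenic libraries left of their wild types. Trp53 lies between 101 and 104 FPKM in all libraries, while Cdkn1a is higher in the knockout-labelled (10.4) and transgenic (9.53) libraries than in either wild type (6.66 and 6.17).

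Cdkn1a (chromosome 17, 29090976 to 29100727, plus strand) encodes p21, the cyclin-dependent kinase inhibitor through which p53 halts division. It was at 10.4 FPKM in the library labelled knockout, against 6.66 in its transplanted wild type, and at 9.53 in the transgenic library, against 6.17 in steady-state wild type. These values rest on about 109, 63, 84 and 55 reads. The library labelled knockout and the library labelled transgenic therefore both lay above both wild-type libraries, which were close to each other. The ratio was 1.56 (1.13 to 2.16) for the library labelled knockout over wild type and 1.55 (1.09 to 2.21) for transgenic over wild type, and these comparisons share no library. Transplanted over steady-state wild type it was 1.08 (0.742 to 1.58). Of the 8 members at 1 FPKM or more in all libraries Cdkn1a spanned the widest range, 1.69-fold, a span that 87.9% of all such genes did not exceed. The neutrophil and monocyte markers had another order. Their sum was 689 FPKM in the library labelled knockout against 1792 in its wild type, and 1911 in the transgenic library against 805 in its wild type. Of the 12 pre-B markers 4 were higher in both genotype comparisons, Vpreb1 among them, and 5 were lower in both. The part of other cells or of cell stage in the level of Cdkn1a was not tested. An unnamed locus overlaps Cdkn1a on the opposite strand, and whether reads were assigned by strand is unknown.

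Btg2 (chromosome 1, 134075170 to 134079120, minus strand) is an antiproliferative p53 target that is also an immediate early gene, and it was the most abundant of the members. It was at 226 FPKM in the library labelled knockout against 282 in its wild type, a ratio of 0.802 (0.771 to 0.833). In the transgenic library it was at 289 FPKM against 347 in its wild type, a ratio of 0.834 (0.804 to 0.865). Transplanted over steady-state wild type the ratio was 0.814 (0.785 to 0.844). In each genotype comparison Btg2 thus lay on the opposite side of wild type from Cdkn1a. The 20 immediate early genes, a list without Btg2, summed to 1393 FPKM in the library labelled knockout against 2945 in its wild type, and to 1689 in the transgenic library against 2719 in its wild type. That is the side of Btg2 in both genotype comparisons, but transplanted wild type lay above steady-state wild type in this sum and below it in Btg2. Their part in the level of Btg2 was not tested.

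Ccng1 (chromosome 11, 40748552 to 40755311, minus strand), which encodes the atypical cyclin G1, varied little. It was at 26.6, 28.0, 26.4 and 26.2 FPKM in the library labelled knockout, transplanted wild type, the transgenic library and steady-state wild type. The highest library exceeded the lowest 1.07-fold, on 632 to 758 reads each. Of genes at 1 FPKM or more in all libraries, 4.34% spanned as little as Ccng1, again without matching for level. Its promoter window holds a match as close as that of Cdkn1a, shown above, and its levels had another order: the ratio was 0.950 (0.857 to 1.05) for the library labelled knockout over wild type and 1.01 (0.903 to 1.13) for transgenic over wild type.

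The members tied to cell death differed in direction. Trp53inp1 (chromosome 4, 11156431 to 11174379, plus strand), a nuclear protein gene that promotes p53-dependent death and autophagy, was at 170 FPKM in the library labelled knockout and 168 in transplanted wild type, and at 196 in the transgenic library and 207 in steady-state wild type. Both transplanted libraries lay below both steady-state ones, and transplanted wild type was 1.23-fold lower (1.19 to 1.27) than steady-state wild type. Aen (chromosome 7, 78895854 to 78911209, plus strand), which encodes a nuclease that enlarges the apoptotic response, was at 18.9 and 20.2 FPKM in those transplanted libraries and at 16.4 and 16.0 in the steady-state ones. Here the transplanted libraries lay above, and transplanted over steady-state wild type the ratio was 1.26 (1.12 to 1.42). Phlda3 (chromosome 1, 135766119 to 135769136, plus strand), a repressor of AKT signalling, was at 0.366, 0.410, 0.437 and 0.217 FPKM, or 2 to 4 reads per library, and allows no comparison at this depth.

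Zmat3 and Polk complete the members. Zmat3 (chromosome 3, 32334792 to 32366014, minus strand), an RNA-binding growth inhibitor, was at 0.896 and 1.04 FPKM in the library labelled knockout and transplanted wild type, and at 1.13 in both steady-state libraries. It rested on 59 to 63 reads in each library, and the interval of each of its ratios spans 1. Polk (chromosome 13, 96480690 to 96542579, minus strand), the DNA polymerase kappa that copies past damaged bases, was at 3.95 FPKM in the library labelled knockout against 4.78 in its wild type, and at 5.10 in the transgenic library against 3.84 in its wild type. Its genotype differences had opposite signs, with a ratio of 0.827 (0.651 to 1.05) for the library labelled knockout and 1.33 (1.03 to 1.71) for transgenic cells.

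**Figure D2:**
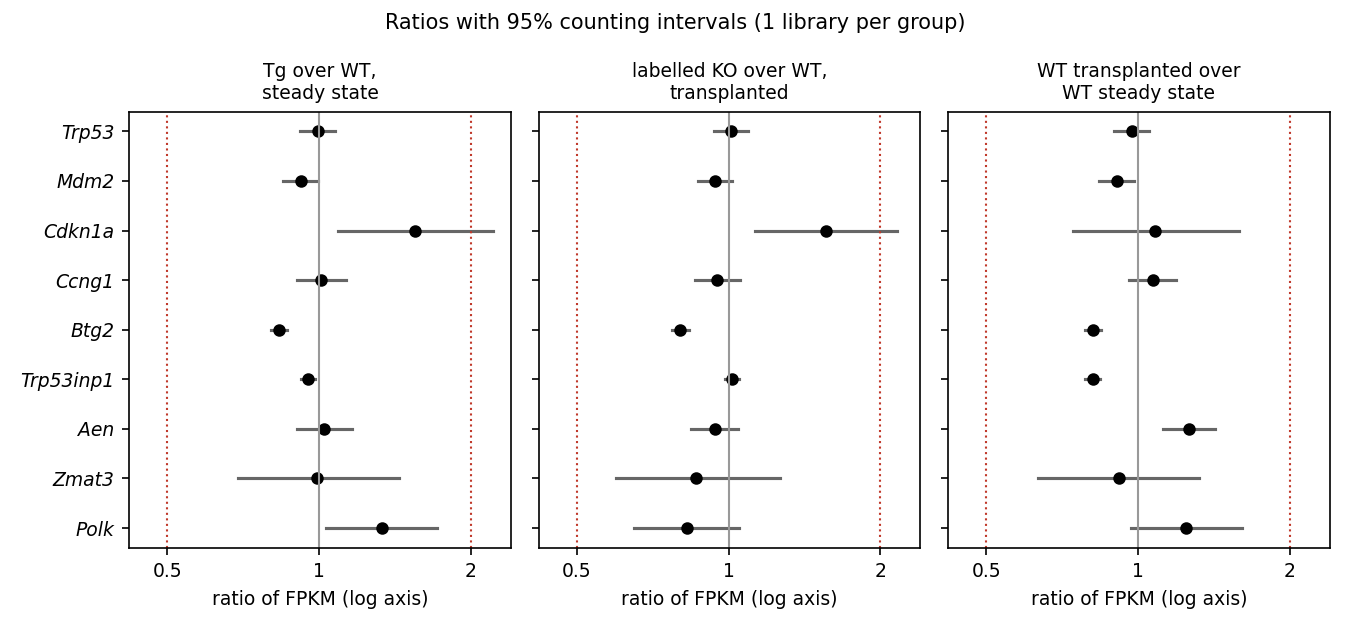
Ratio of FPKM (log axis) in each of 3 comparisons for the 9 members at 1 FPKM or more in any library (Phlda3 is left out), with 95% exact intervals for counting error; dotted lines mark 2-fold. No member reaches 2-fold, and Cdkn1a has the highest ratio in both genotype comparisons (1.55 and 1.56).

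Differences were taken as log2(FPKM + 1), each as the first-named library minus the second. They were taken over genes that reached 1 FPKM in at least 1 of both libraries, a filter that 9 of the 10 members passed in each. For transgenic over wild type, 0 of the 9 were past 2-fold, where 1.9% of all genes were. Their median was -0.01, beside -0.02 over all 10843 genes, with 4 of the 9 higher beside 46.7% of all genes and 5 lower beside 53.3%. For the library labelled knockout over wild type 0 of 9 were past 2-fold, where 1.84% of all genes were, with a median of -0.09 beside -0.03 over 10790 genes, 3 of 9 higher beside 44%, and 6 lower beside 56%. For transplanted over steady-state wild type 0 of 9 were past 2-fold, where 2.3% of all genes were, with a median of -0.04 beside -0.02 over 10835 genes, 4 of 9 higher beside 45.9%, and 5 lower beside 54.1%. Nor was any of the 9 past 1.5-fold on this scale, where 6.12%, 8.16% and 7.48% of all genes were. This call turned for Cdkn1a, which lay just inside it: for the library labelled knockout over wild type its difference of 0.57 became 0.60 and 0.61 under the 2 rescalings and 0.64 with a pseudocount of 0.1, all past 1.5-fold, and for transgenic over wild type 0.55 became 0.62 with that pseudocount. A count of 0 among 9 lies near each of these shares. Across both genotype comparisons, which share no library, Cdkn1a was the 1 member that was higher in both, beside 23.7% of all genes, and Mdm2, Btg2 and Zmat3 were lower in both, beside 32.9%. Trp53 and Zmat3 lay so close to 0 in the transgenic comparison that rescaling the libraries turned their sign.

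The question of a lasting response was put to both transplanted libraries together. A member was counted where both of them lay above, or both below, both steady-state libraries. This held for 7 of 9 members, beside 33.6% of 11053 genes at 1 FPKM or more in any library. Of the 7, Aen and Ccng1 were higher after transplantation, beside 14.9% of all genes, while Trp53, Mdm2, Trp53inp1, Btg2 and Zmat3 were lower, beside 18.7%. Trp53 left this count when the libraries were rescaled to a common median or upper quartile. The gaps were narrow: with a gap of at least 1.2-fold between the nearest libraries 0 of 9 members were left, beside 3.41% of all genes, 1.94% higher and 1.47% lower. Among the other p53 lists Bbc3, 1 of 11 measured genes of cell death, and Plk3, 1 of 25 of arrest and repair, passed this gap, both higher after transplantation. Without the gap, 5 of the 11 genes of cell death were higher in both transplanted libraries and 1 was lower. Of the 25 genes of arrest and repair 4 were higher and 3 lower, and of 19 regulators 2 were higher and 2 lower. Over all genes these shares were 14.9% higher and 18.7% lower. Each side holds 2 libraries that differ in genotype.

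The regulators upstream of p53 were spread around 0. Of 19 measured, 10 were higher and 9 lower in the transgenic library than in wild type (median 0.02), where 46.7% of all genes were higher. Of the same 19, 7 were higher and 12 lower in the library labelled knockout than in wild type (median -0.09), where 44% of all genes were higher. Chek1 and Chek2, the checkpoint kinases that act on p53 after DNA damage, were higher in both. Chek1 was at 9.63 FPKM in the library labelled knockout against 6.35 in its wild type, a ratio of 1.52 (1.24 to 1.86). It was at 7.93 FPKM in the transgenic library against 5.60 in its wild type, a ratio of 1.42 (1.12 to 1.78). Chek2 had ratios of 1.37 (1.09 to 1.72) and 1.43 (1.13 to 1.83) in those comparisons. Both kinases, like Cdkn1a, were higher in the libraries labelled knockout and transgenic than in either wild type. So were the cell cycle genes that p53 represses through p21, given below. The part of cell division in the levels of Chek1 and Chek2 was not tested. Prkdc, the catalytic subunit of DNA-dependent protein kinase, was at 7.78 FPKM in the library labelled knockout and 8.55 in transplanted wild type, and at 6.6 in the transgenic library and 5.89 in steady-state wild type. Both transplanted libraries were higher, with a ratio of 1.45 for transplanted over steady-state wild type. Atr, the kinase of stalled replication forks, was at 9.98, 11.9, 10.6 and 9.68 FPKM in the library labelled knockout, transplanted wild type, the transgenic library and steady-state wild type. Rchy1, a ubiquitin ligase gene that is both target and inhibitor of p53, was at 44.4, 47.5, 48.9 and 58.9 FPKM in that order, highest in steady-state wild type. Ppm1d, the phosphatase gene that is induced by p53 and switches it off, was at 26.3 and 21.7 FPKM in the library labelled knockout and its wild type, and at 21.9 and 23.6 in the transgenic library and its wild type. Cdkn2a, whose p19Arf product restrains Mdm2, rested on 5 to 9 reads in each library, and the relatives Trp63 and Trp73 on 4 or fewer.

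Among the further targets that promote cell death Pmaip1 had the widest difference in both comparisons that include transplanted wild type. Pmaip1, which encodes the BH3-only protein Noxa, was at 4.85 FPKM in the library labelled knockout against 16.3 in its wild type, and at 4.16 in the transgenic library against 4.96 in its wild type. Transplanted wild type was thus above each other library, with a ratio of 3.28 (2.58 to 4.17) over steady-state wild type. The ratio was 0.298 (0.236 to 0.371) for the library labelled knockout over transplanted wild type. Bbc3, the gene of the BH3-only protein Puma, was at 3.71 FPKM in the library labelled knockout and 5.10 in transplanted wild type, and at 2.33 in the transgenic library and 2.47 in steady-state wild type. Here both transplanted libraries were higher, and transplanted over steady-state wild type the ratio was 2.07 (1.33 to 3.36). Fas, the death receptor gene, was at 1.26, 2.88, 2.01 and 1.39 FPKM in the library labelled knockout, transplanted wild type, the transgenic library and steady-state wild type. It rested on 8 to 18 reads per library, and the interval for transplanted over steady-state wild type, 0.880 to 5.66, spans 1. Lrdd, which encodes the death-domain protein Pidd1, was highest in the library labelled knockout, at 15.9 FPKM against 11.1 in its wild type, a ratio of 1.44 (1.23 to 1.70), and at 12.5 in the transgenic library against 11.9 in its wild type. Apaf1, the apoptosome scaffold, was lower in transplanted wild type than in steady-state wild type, at 19.6 against 23.8 FPKM, a ratio of 0.823 (0.753 to 0.899). For the death receptor gene Tnfrsf10b and the ferredoxin reductase gene Fdxr the intervals of all ratios span 1. Bax, the pore-forming effector, was at 76.6, 73.1, 69.7 and 65.6 FPKM in that order of libraries. Of 11 measured genes of this list 8 were higher in transplanted than in steady-state wild type, beside 45.9% of all genes, with a median of 0.06. On the log2(FPKM + 1) scale 1 of them, Pmaip1, was past 2-fold higher, beside 1.67% of all genes. In the library labelled knockout 6 of the 11 were higher than in wild type and 5 lower (median 0.002), where 44% of all genes were higher. In the transgenic library 4 were higher than in wild type and 7 lower (median -0.03), where 46.7% of all genes were higher.

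The targets of arrest, stress response and repair were spread on both sides. Of 24 measured, 14 were higher and 10 lower in transplanted than in steady-state wild type (median 0.11), where 45.9% of all genes were higher. For the library labelled knockout over its wild type, 9 of 24 were higher and 15 lower (median -0.11), where 44% of all genes were higher. Of 25 measured in the transgenic comparison 16 were higher (median 0.15), where 46.7% of all genes were. Gadd45b and Gadd45g, stress sensors that are also immediate early genes, were highest in transplanted wild type, Gadd45g at 37.1 FPKM in the library labelled knockout, 67.0 in transplanted wild type, 52.4 in the transgenic library and 43.3 in steady-state wild type. Gadd45a, the family member most closely tied to p53, was at 23.1, 25.5, 27.6 and 30.9 FPKM in the same order. Ephx1, an epoxide hydrolase gene, was at 31.0 FPKM in the library labelled knockout against 48.0 in its wild type, and at 30.8 in the transgenic library against 26.6 in its wild type. Pmaip1 and Ephx1 were the 2 genes of the p53 lists that lay past 1.5-fold above each of the other libraries in transplanted wild type, a pattern held by 1.04% of all genes, by 9 of 19 immediate early genes and by 5 of 17 neutrophil and monocyte markers. Their part in the levels of Pmaip1 and Ephx1 was not tested. Plk3, a stress-induced polo-like kinase gene, was at 2.93 and 2.51 FPKM in the library labelled knockout and transplanted wild type, and at 1.15 and 1.26 in the transgenic library and steady-state wild type. Both transplanted libraries were higher, with a ratio of 1.98 (1.13 to 3.64) for transplanted over steady-state wild type on 40 and 19 reads.

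**Figure D3:**
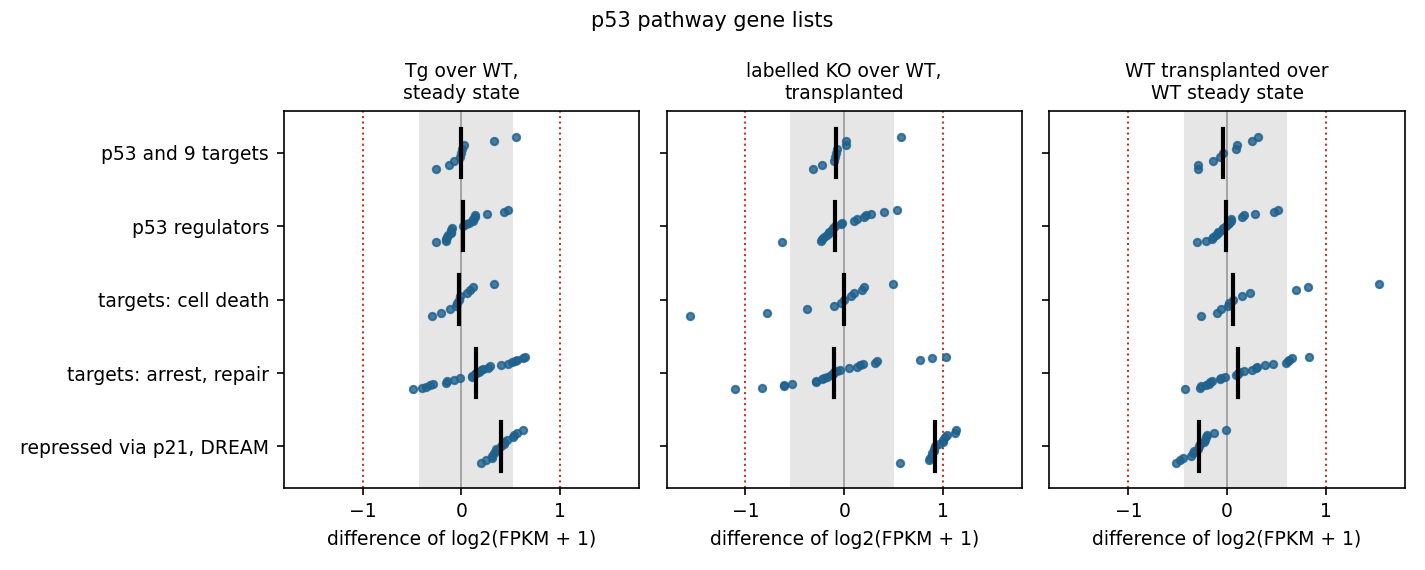
Difference of log2(FPKM + 1) for each measured gene of 5 p53 lists (points) with the list's median (black bar), in 3 comparisons, the grey band spanning the 5th to the 95th percentile of all genes and dotted lines marking 2-fold. The genes repressed through p21 lie right of 0 in the transgenic and knockout-labelled libraries (medians 0.41 and 0.92) and left of 0 in transplanted wild type (median -0.28), while the other medians stay between -0.11 and 0.15.

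The target Plk2, a polo-like kinase gene induced by stress, was at 11.8 FPKM in the library labelled knockout against 26.5 in its wild type, 2.24-fold lower (1.93 to 2.61). It was at 22.7 in the transgenic library against 32.3 in its wild type, 1.42-fold lower (1.26 to 1.61). Plk2 thus shared the direction of Btg2 in both genotype comparisons. Gtse1 and Psrc1, p53-linked genes of the mitotic spindle, lay on the other side. Gtse1 was at 20.9 FPKM in the library labelled knockout against 10.8 in its wild type, a ratio of 1.93 (1.63 to 2.28), and at 18 in the transgenic library against 11.4 in its wild type, a ratio of 1.58 (1.32 to 1.89). Psrc1 had ratios of 2.24 (1.64 to 3.05) and 1.52 (1.14 to 2.05) in those comparisons. Rps27l, a ribosomal protein homologue induced by p53, was at 108 FPKM in the library labelled knockout against 85.6 in its wild type, and at 103 in the transgenic library against 65.6 in its wild type. It is a short gene whose reads may be shared with a close paralog, so its level is uncertain.

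The genes that p53 represses through p21 and the DREAM complex, all of them cell cycle genes, lay on 1 side in each comparison. All 15 were higher in the library labelled knockout than in its wild type, where 44% of all genes were higher. Their median there was 0.92, and 0.83 with a pseudocount of 5. On the log2(FPKM + 1) scale 6 of them were past 2-fold, beside 0.667% of all genes. Those 6 lay near the line, at differences from 1.00 to 1.13, so their count depends on the pseudocount. All 15 were also higher in the transgenic library than in its wild type, at a median of 0.41, where 46.7% of all genes were higher. Over all genes 23.7% were higher in both comparisons. All 15 were lower in transplanted than in steady-state wild type, at a median of -0.28, where 54.1% of all genes were lower. After rescaling by the median of gene ratios 14 of the 15 were lower. Cdc25c, the phosphatase that releases Cdk1, was at 8.43 FPKM in the library labelled knockout against 3.64 in its wild type, and at 7.70 in the transgenic library against 4.64 in its wild type. Cdk1, the mitotic kinase, was at 37.3 FPKM in the library labelled knockout against 16.5 in its wild type, and at 28.5 in the transgenic library against 22.8 in its wild type. The survivin gene Birc5 was at 97.9 FPKM in the library labelled knockout against 44.3 in its wild type, and at 74.0 in the transgenic library against 62.1 in its wild type. The 4 libraries thus had the same order for Cdc25c, Cdk1 and Birc5. Mybl2, a transcription factor of dividing cells, had ratios of 1.91 (1.66 to 2.21) and 1.52 (1.31 to 1.77) in those comparisons. In both genotype comparisons this list and Cdkn1a thus lay on the same side of wild type, whereas transplanted wild type had lower levels of the list than steady-state wild type and a Cdkn1a ratio whose interval spans 1.

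**Figure D4:**
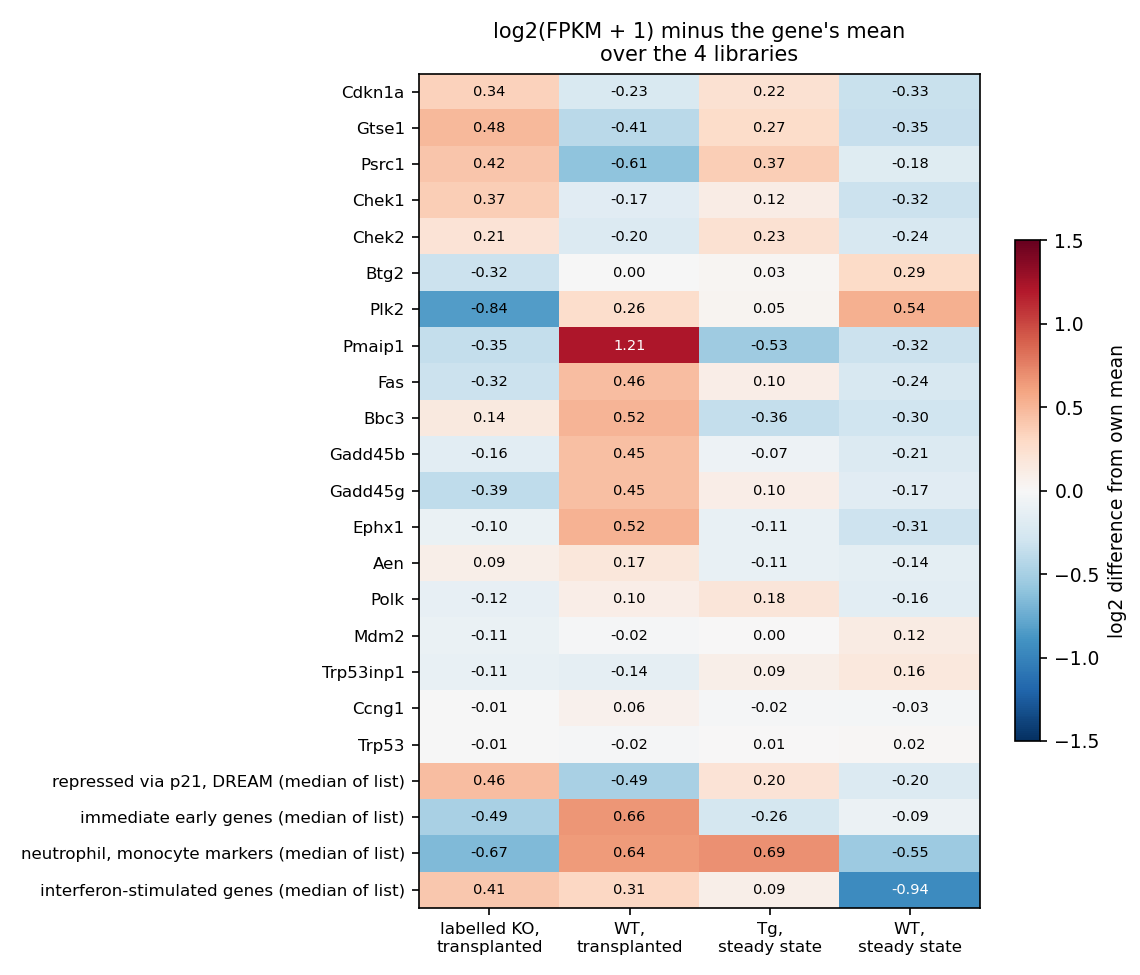
Level of 19 p53 pathway genes, chosen from the text after their values were seen, and the median of 4 gene lists, as log2(FPKM + 1) minus the mean over the 4 libraries (red higher, blue lower). Cdkn1a (0.34 in the knockout-labelled library, -0.23 in its wild type, 0.22 in the transgenic library, -0.33 in its wild type) has the signs of the p21-repressed list in each library, and Pmaip1 reaches 1.21 in transplanted wild type alone.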

How the data were processed

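The deposited values were read as FPKM: per the file headers they carry a tracking identifier and no unit, they are not whole, and Cufflinks 2.2.1 stands in the submitters' processing notes beside TopHat2 2.0.13, Bowtie2 2.2.3, SAMtools 0.1.19 and mm10. Their roles, the annotation, the strand setting and any scaling between libraries were not given in the sources used here. Libraries were made with a stranded mRNA kit, per the labels' protocols.

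Depth was estimated from genes with 1 annotated transcript (GENCODE M21, GRCm38), taking transcript length minus 205 nt. Between 65.4% and 70.3% of low values came within 0.1 of a whole read. The read totals and the 205 nt were themselves chosen to bring such values near whole reads. This share is therefore no independent check of depth. Ratios carry exact Clopper-Pearson intervals, approximate for genes with several transcripts. Differences of log2(FPKM + 1) understate changes of low genes. With 1 library per group no test was run. The calculation was tested on simulated reads. Python 3.11.15, pandas 2.3.3 and SciPy 1.17.1 were used.

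Members, 12 gene lists (191 of 193 symbols found, 4 through a synonym) and comparisons were chosen with earlier results of these data known. Named were all members and, from each of 4 p53 pathway lists, genes among the 4 largest differences per comparison. Mdm4, Bax, Gadd45a, Tap1, Trp63, Trp73 and the markers Cd79b, Vpreb1, Vpreb3, Dntt and Rag1 were named after their values were seen. Alternatives were other pseudocounts, filters, scalings and folds.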

Additional observations from a re-analysis of the deposited data

How the results depend on the processing

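No member of the p53 set was past 2-fold in any of the 3 comparisons under pseudocounts of 0.1 or 5, without a filter, at 5 FPKM or more, or under either rescaling. At 1.5-fold the count was 0 as reported, but Cdkn1a passed for the library labelled knockout under both rescalings and a pseudocount of 0.1, and for the transgenic library under that pseudocount. The 108 member differences recomputed with another pseudocount or scaling stayed within the counting interval of the ratio, and the filters cannot move them. Rescaling multiplies all genes of a library alike, so this was a weak check of single genes. For transgenic over wild type Trp53 kept its sign in 5 of 7 settings and Zmat3 in 4 of 6, the reported setting included. Of the recomputed medians of the p53 lists, 89 stayed within a limit set from the spread of the list and 1 did not. It was that of the genes repressed through p21, for the library labelled knockout over wild type. With a pseudocount of 5 it was 0.83, against 0.92 as reported. Counts of all genes past 2-fold moved. For transgenic over wild type 206 genes became 434 with a pseudocount of 0.1, 76 with 5, 113 at 5 FPKM or more and 664 at 1.5-fold. For the library labelled knockout over wild type 199 became 421, 69, 132 and 880. For transplanted over steady-state wild type 249 became 504 with a pseudocount of 0.1, 92 with 5 and 810 at 1.5-fold. Genes with transplanted and steady-state libraries apart numbered 3717, and 377 with a gap of 1.2-fold, where the 7 members became 0. Leaving out either transplanted library was an alternative chosen after seeing the data. It gave 7487 to 7686 of 11053 genes and 7 to 8 of 9 members, since fewer libraries need to agree. Most genes were thus counted, as were most members. No paired analysis was possible because each group has 1 library. Depth leaves Phlda3, Cdkn2a and Fas, at 2 to 18 reads per library, without a usable comparison.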

Other observations

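Tap1, a peptide transporter gene that answers to both p53 and interferon, was at 120 FPKM in the library labelled knockout, 109 in transplanted wild type, 103 in the transgenic library and 71.8 in steady-state wild type. Its low library was that of the 23 interferon-stimulated genes, which summed to 1549, 1241, 1583 and 581 FPKM in the same order of libraries. Most of each sum was Ifi27l2a, at 1065, 783, 1163 and 348 FPKM. As log2(FPKM + 1) minus each gene's own mean, the median of this list was 0.41, 0.31, 0.09 and -0.94 in that order. The part of interferon in Tap1 was not tested.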
